A study of Mus musculus with 4 samples.

Results

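Genes that set or limit the strength of NOTCH signaling, 10 in all, were followed in mouse mammary tumor cells in which the signal itself could be lowered. The list was given by gene name and was chosen with earlier results of these data known. It comprised the feedback inhibitor Nrarp, the Deltex genes Dtx1, Dtx2, Dtx3 and Dtx4, the Fringe genes Lfng, Mfng and Rfng, and Numb with its relative Numbl. All 10 genes were on the array, with 17 probe sets that carried only their symbol, among 18193 genes and 45037 probe sets in all. Cell lines 8534 and 8542 each came from a primary mammary tumor of a different female MMTV-tTA/TOP-ICN1 mouse of FVB/N;B6 background, so that each line stands for 1 tumor. In these mice the MMTV promoter drives the tetracycline transactivator, which in turn switches on human ICN1, the intracellular and constitutively active part of NOTCH1. Untreated cells therefore had ICN1 on, whereas doxycycline at 2 µg/ml for 24 hours lowered it, and both groups carried both transgenes. The study's immunoblots showed decreased ICN1 after this treatment. No line without the transgenes was treated, so effects of doxycycline itself and of ICN1 loss cannot be told apart. The age of the mice was not given. One array was hybridized per line and condition, so that every change below is a doxycycline value minus the untreated value of the same line and n = 2 lines.

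NOTCH is a receptor that, once bound by a ligand on a neighboring cell, is cut to release its intracellular domain, which joins the DNA-binding protein RBPJ in the nucleus and turns on target genes. Several of these targets act back on the pathway. NRARP binds the complex of the intracellular domain and RBPJ and promotes loss of the intracellular domain, whereas Deltex proteins are ubiquitin ligases, the founding member of which binds the intracellular ankyrin repeats of NOTCH. Fringe proteins are Golgi glycosyltransferases that extend O-fucose on the NOTCH extracellular domain and shift its preference between Delta and Jagged ligands. NUMB is an endocytic adaptor that is inherited unequally in some divisions and lowers NOTCH activity in the cell that receives it. ICN1 lacks the extracellular domain that Fringe proteins modify.

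Nrarp and Dtx1 fell after doxycycline in both lines and Lfng rose, whereas the other 7 genes did not pass the test. In limma, a linear model with the cell line as a block fitted to 33778 probe sets (called at an adjusted p under 0.05), 2 of the 10 genes fell, beside 6.95% of all 15070 genes tested, and 1 rose, beside 4.76%. By the rule of the study's methods, more than 2-fold in both lines, the same 2 genes were lower, beside 4.42% of all 18193 genes, and the same 1 was higher, beside 3.09%. Each gene was represented here by its lead probe set, the one with the highest mean log2 signal. Over all 17 probe sets, 15 of which were bright enough to be tested, 3 were called lower and 1 higher, beside 5.54% and 3.69% of all probe sets tested, and the 2-fold rule gave the same counts, beside 4.40% and 3.44% of all probe sets. The treated arrays lay wholly above or below the untreated arrays for 5 of the 10 genes, beside 42.9% of all genes. The median log2 change of the 10 genes was -0.23 for line 8534 and -0.01 for line 8542, where all genes tested had medians of 0.01 and 0.00014. In these bulk samples, fewer cells of a type and less RNA per cell cannot be told apart.

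The arrays had a median signal of 29.1 to 30.5 units, a likeness that MAS5 scaling of each array to a common level brings about. Of all values, 20% lay under 5.52 units, a level used below as a mark of very low signal. All 6 luminal epithelial markers had signals above that mark on every array, among them the keratin genes Krt8 and Krt18 (3467 to 8044 units). Summed over the 6 markers, the signal was 17580 to 22044 units on untreated and 18575 to 26194 units on treated arrays. The 7 basal markers summed to 6065 units untreated and 9571 units treated in line 8534, but to 266 and 318 units in line 8542, the gap lying mostly in Krt14, Krt17 and Acta2. The summed signals of 7 fibroblast markers were likewise 847 and 1103 units in line 8534 and 163 and 164 units in line 8542. The 8 leukocyte markers summed to 218 to 261 units, the 5 endothelial markers to 134 to 270 units and the 3 adipocyte markers to 5.12 to 13.3 units. Ptprc, which marks all leukocytes, stood at 6.08 to 7.20 units, and Adipoq at 0.63 to 3.17 units. Most of the leukocyte sum came from Csf1r (102 to 123 units), Adgre1 (36.6 to 57.0 units) and Tyrobp (29.5 to 39.0 units), well above the mark. What these signals stand for was not tested. Within these lists the directions were mixed, since Krt8 and Krt18 rose while Krt19, another luminal keratin, fell 1.76-fold and 1.90-fold (limma adjusted p = 0.0295, 0.0163 and 0.00302), and the endothelial receptor gene Tek fell 7.09-fold and 2.61-fold (limma adjusted p = 0.0303). The part of these markers in the results below was not tested. Notch1, the mouse counterpart of the transgene, fell from 1532 to 789 units (line 8534) and from 1291 to 915 units (8542; limma adjusted p = 0.0204), and whether its probe set also detects human ICN1 was not tested.

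The promoters of the 3 called genes are shown because NOTCH target genes are read through RBPJ, whose recognition sequence holds the core TGGGAA. Each window runs from 250 bases before to 50 bases after the annotated start, 5′ to 3′ along the gene, from RefSeq on GRCm38.p6: Nrarp at chr2:25180508-25180807 on the plus strand, Dtx1 at chr5:120711620-120711919 on the minus strand and Lfng at chr5:140607091-140607390 on the plus strand. Capitals mark the core on either strand, where TTCCCA is the same core read on the opposite strand.
Nrarp: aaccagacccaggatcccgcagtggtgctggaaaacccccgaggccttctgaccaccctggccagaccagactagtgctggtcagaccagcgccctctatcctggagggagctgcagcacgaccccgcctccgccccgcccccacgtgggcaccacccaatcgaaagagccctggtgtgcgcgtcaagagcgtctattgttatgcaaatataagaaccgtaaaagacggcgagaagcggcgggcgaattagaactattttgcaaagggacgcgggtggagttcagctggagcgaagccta
Dtx1: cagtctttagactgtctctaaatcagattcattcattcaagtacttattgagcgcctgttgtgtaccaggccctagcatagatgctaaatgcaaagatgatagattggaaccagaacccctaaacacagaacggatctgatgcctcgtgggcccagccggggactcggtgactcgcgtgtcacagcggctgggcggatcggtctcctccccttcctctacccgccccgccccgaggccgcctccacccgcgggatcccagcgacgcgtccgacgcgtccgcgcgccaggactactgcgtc
Lfng: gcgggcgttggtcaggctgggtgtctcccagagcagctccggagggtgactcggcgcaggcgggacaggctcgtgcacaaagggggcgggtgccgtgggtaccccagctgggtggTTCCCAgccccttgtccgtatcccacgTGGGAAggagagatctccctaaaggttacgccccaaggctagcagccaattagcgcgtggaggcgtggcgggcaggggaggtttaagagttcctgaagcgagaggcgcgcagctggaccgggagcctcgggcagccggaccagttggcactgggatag
The Lfng window held the core at bases 116 to 121, on the opposite strand, and at bases 143 to 148. The latter match lay within the longer form CGTGGGAA, which, like TGTGGGAA, was searched after the windows had been read. Of 32851 promoter windows of the same length, 25.6% held the core at least once and 3.79% at least 2 times, and 0.734% and 1.86% held the respective longer forms. The windows of Nrarp and Dtx1 did not hold these letters. Windows were found for 7 of the 10 genes, and beyond Lfng only that of Dtx2 held the core, once. These are matches of letters within the windows. Sequence outside the windows was not searched, and binding was not measured on the arrays.

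Nrarp, which encodes the small ankyrin-repeat inhibitor of the NOTCH complex, gave the strongest change of the set. Its lead probe set (1417985_at) read 4730 units in 8534 cells before and 219 units after doxycycline, against 4511 and 143 units in 8542 cells. The untreated lines thus lay close together, and both treated arrays were far below them. Nrarp fell 21.6-fold in 8534 cells and 31.6-fold in 8542 cells, by a mean of -4.71 ± 0.39 on the log2 scale (SD over 2 lines; limma adjusted p = 7.86e-05). The other Nrarp probe set (1417986_at), which the annotation derives from the same source sequence, went from 2263 to 79.5 units and from 1973 to 62.0 units. Its changes, 28.5-fold and 31.8-fold, differed less between the lines (mean log2 change -4.91 ± 0.11, limma adjusted p = 6.92e-05). Ordered by mean log2 change, Nrarp stood 18th from the largest fall among the 15070 genes tested. Without the intensity trend, by which the model ties spread to signal level, its call was lost (limma adjusted p = 0.223). So was every other call on the array. The treated signals of both probe sets still lay above the mark of 5.52 units. By brightness, 86.0% of all probe sets were dimmer than the lead probe set in treated 8534 cells and 79.9% in treated 8542 cells, against 99.6% on either untreated array.

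**Figure D1:**
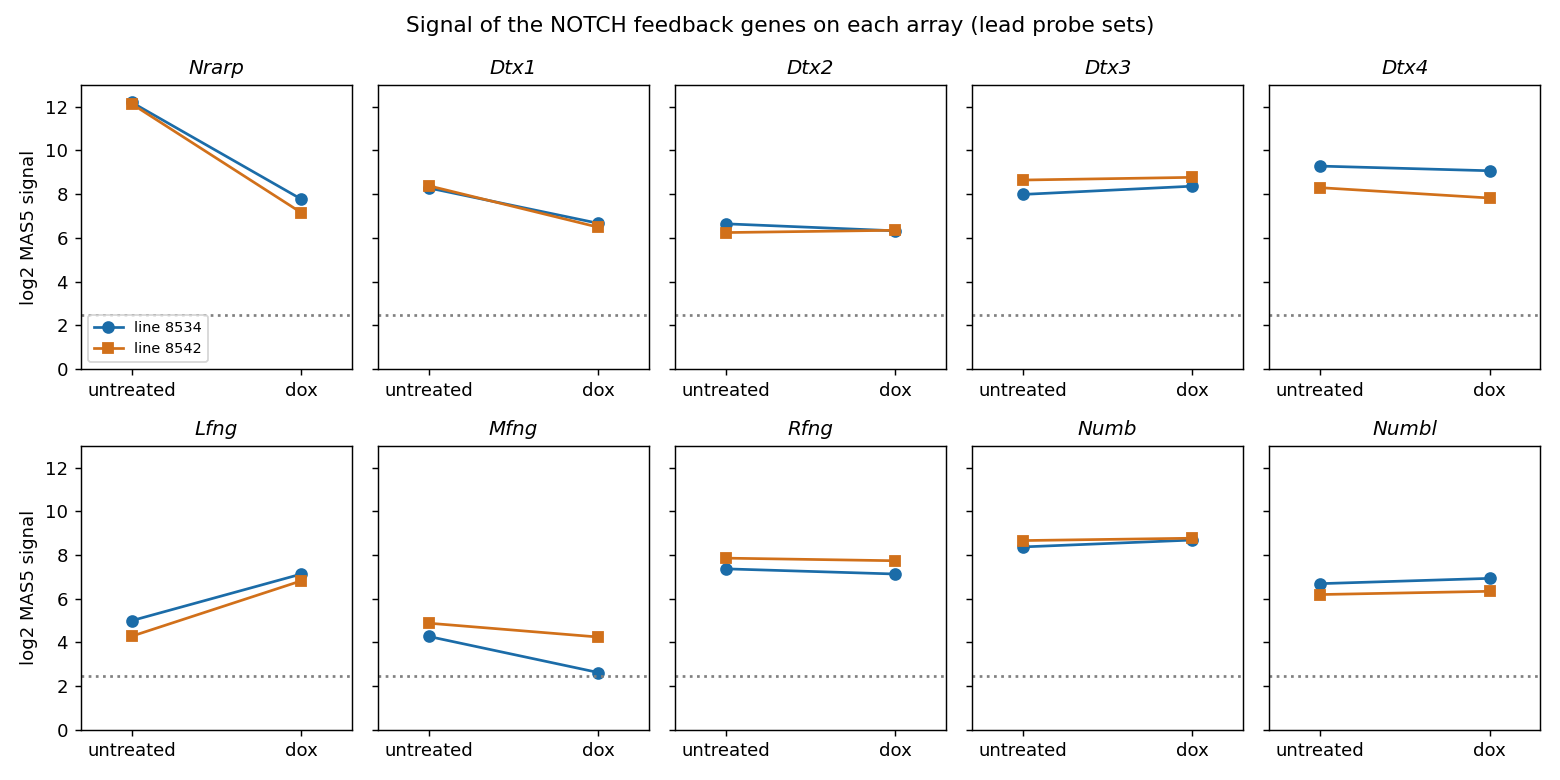
Log2 MAS5 signal of the lead probe set of each of the 10 genes on the untreated and the doxycycline-treated (dox, 24 hours) array of lines 8534 (circles) and 8542 (squares). A point stands for 1 array, points of the same cell line are joined, and 20% of all values lie under the dotted line (2.47). Nrarp and Dtx1 dropped in both lines and Lfng rose, whereas the slopes of the other genes were small or, for Mfng, unequal.

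Of the 4 Deltex genes, Dtx1 alone was called, and it fell in both lines. Dtx1 (1425822_a_at) encodes Deltex1, the ubiquitin ligase that binds the ankyrin repeats of NOTCH. Its signal was 312 units untreated and 102 units treated in line 8534, and 334 and 89.7 units in line 8542. Treated and untreated arrays did not overlap, and the lines lay close together in either condition. The folds were 3.07 and 3.73, and the mean log2 change was -1.76 ± 0.20 (SD over 2 lines; limma adjusted p = 0.00143), 403rd from the largest fall among the genes tested. The call did not hold without the block (limma adjusted p = 0.0642) or without the intensity trend (limma adjusted p = 0.223). Nor did it hold over the mean of both Dtx1 probe sets (limma adjusted p = 0.0867). The second probe set (1458643_at) was very dim, at 1.94 and 1.15 units in line 8534 and at 6.96 and 2.96 units in line 8542, under the expression filter. It was lower with doxycycline in each line, but its treated value in line 8542 lay above the untreated value in line 8534.

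Dtx2, Dtx3 and Dtx4 changed by less than 2-fold in both lines. Dtx2, whose product also binds the NOTCH ankyrin repeats, was measured by a pair of probe sets that differed in sign. The lead probe set (1421720_a_at) read 99.9 units before and 80.0 units after doxycycline in 8534 cells and 75.7 and 81.4 units in 8542 cells, a mean log2 change of -0.11 (95% confidence interval -0.61 to 0.40; limma adjusted p = 0.832). The other (1439429_x_at), of a type whose probes may also bind other transcripts, read 60.0 and 68.5 units in line 8534 and 52.6 and 82.5 units in line 8542, a mean log2 change of 0.42 (-0.13 to 0.97; limma adjusted p = 0.356). No direction can therefore be given for Dtx2.

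Dtx3, a shorter Deltex protein that lacks the NOTCH-binding WWE domains, had 1 probe set (1420752_at) with signals of 254 and 330 units in line 8534 and 401 and 436 units in line 8542. The value was higher with doxycycline in each line, but the gap between the lines (0.53 on the log2 scale) was wider than the change, and the mean log2 change of 0.25 (95% confidence interval -0.08 to 0.58) did not pass (limma adjusted p = 0.364). Dtx4, a Deltex ligase with WWE domains, read 624 and 538 units in line 8534 and 315 and 227 units in line 8542 by its lead probe set (1436545_at). The second probe set (1455711_at) read 234 and 197 units, and 136 and 103 units. Both were lower with doxycycline in each line. The mean log2 changes were -0.34 (-0.67 to -0.02) and -0.32 (-0.71 to 0.06), and neither passed after adjustment (limma adjusted p = 0.200 and 0.306).

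Of the 3 Fringe genes, Lfng, which encodes Lunatic fringe, rose, and Mfng and Rfng did not pass the test. Its lead probe set (1420643_at) was at 31.7 units untreated and 139 units treated in line 8534, and at 19.4 and 112 units in line 8542, so that both treated arrays were above both untreated ones. The rise was 4.39-fold and 5.80-fold, by a mean of 2.33 ± 0.28 on the log2 scale (SD over 2 lines; limma adjusted p = 0.002), 51st from the largest rise among the 15070 genes tested. The untreated signals lay in the middle of the arrays, with 51.3% and 40.7% of probe sets below them, and the treated signals had 79.5% and 76.2% below them. The other Lfng probe set (1449943_at) stayed between 2.02 and 2.59 units on all 4 arrays, a level where only 8.95% to 10.9% of probe sets were dimmer. The annotation ties both probe sets to the same transcript, and the rise of Lfng thus rests on 1 of them. The call was lost over their mean (log2 change 1.29, limma adjusted p = 0.211). It was also lost without the block (limma adjusted p = 0.0871) and without the intensity trend (limma adjusted p = 0.223).

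Mfng, the gene of Manic fringe, was lower with doxycycline in each line, but by unequal amounts. Its only probe set (1416992_at) read 19.3 units before and 6.13 units after doxycycline in 8534 cells and 29.3 and 18.9 units in 8542 cells. The groups did not overlap, yet the treated 8542 array was only just under the untreated 8534 array. The log2 change was -1.65 in line 8534 and -0.63 in line 8542, a mean of -1.14 ± 0.72 (SD over 2 lines; 95% confidence interval -2.36 to 0.08; limma adjusted p = 0.252). Signals were low throughout, and that of treated 8534 cells was close to the mark of 5.52 units.

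Rfng, the gene of Radical fringe, was lower by less than 2-fold on both of its probe sets. The lead (1460704_at) read 164 and 140 units in line 8534 and 231 and 213 units in line 8542, a mean log2 change of -0.18 (95% confidence interval -0.55 to 0.19; limma adjusted p = 0.580). The other (1421160_a_at) read 119 and 75.4 units and 129 and 99.7 units, a mean log2 change of -0.52 (-0.97 to -0.06; limma adjusted p = 0.164). The lead overlapped between treated and untreated arrays, whereas the other did not.

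Numb and Numbl gave no call. Numb, the endocytic adaptor, read 330 and 410 units in line 8534 and 404 and 435 units in line 8542 by its lead probe set (1416891_at). Both treated arrays lay above both untreated ones, but 410 against 404 units is a narrow margin, and the mean log2 change of 0.21 (95% confidence interval -0.11 to 0.53) did not pass (limma adjusted p = 0.427). The second Numb probe set (1425368_a_at) was dimmer, at 26.3 and 32.8 units and at 32.2 and 31.6 units (mean log2 change 0.15, -0.61 to 0.90; limma adjusted p = 0.848). Numbl, which encodes the Numb-like protein, read 103 and 122 units in line 8534 and 72.8 and 80.7 units in line 8542 (1416491_at). Its mean log2 change was 0.20 (-0.26 to 0.65; limma adjusted p = 0.627). The intervals of the lead probe sets reach up to 0.53 for Numb and 0.65 for Numbl on the log2 scale, so that a small rise was not detectable with 2 lines.

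**Figure D2:**
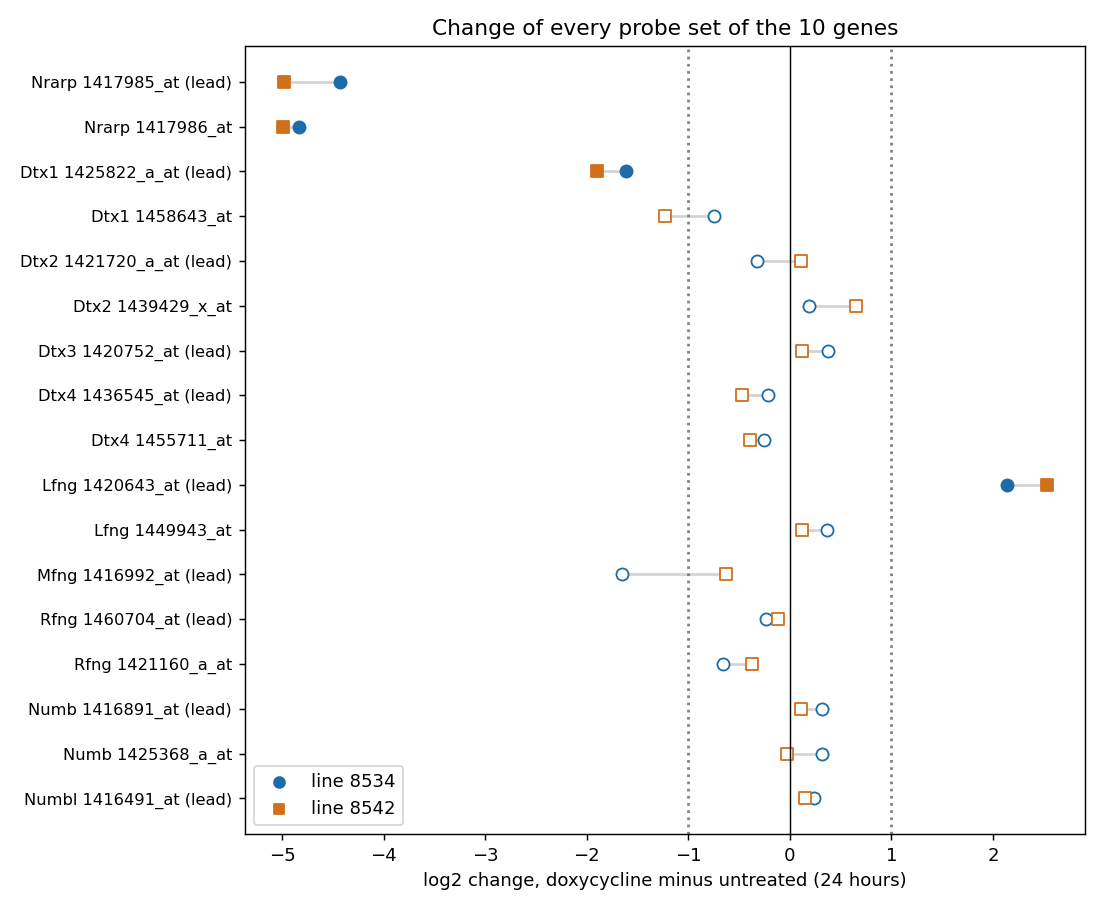
Log2 change, doxycycline minus untreated at 24 hours, of all 17 probe sets of the 10 genes, with line 8534 as circles and line 8542 as squares. Filled symbols mark probe sets called in limma (adjusted p under 0.05) and dotted lines a 2-fold change. The probe sets of Nrarp lie together near -5, whereas those of Lfng lie apart, at 2.13 and 2.53 for the lead and at 0.36 and 0.12 for the dim one.

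Between the lines, apart from doxycycline, Dtx4 was the one member that differed past the threshold. The test of the line term of the same model was added after the values were seen and compares these lines, each with 2 arrays. It called 1 of the 10 genes, beside 5.64% of all genes tested in either direction. Dtx4 was lower in line 8542 by 1.12 on the log2 scale (95% confidence interval -1.45 to -0.79; limma adjusted p = 0.0093), a 2.17-fold difference, and the second probe set by 0.86 (-1.24 to -0.47; limma adjusted p = 0.0361). The order held in untreated and in treated cells, with line differences of -0.99 and -1.25 for the lead. Dtx3 and Rfng were higher in line 8542, by 0.53 and 0.55, and Numbl was lower, by 0.55, without passing (limma adjusted p = 0.0944, 0.114 and 0.188). As line 8542 minus line 8534, Nrarp differed by -0.07 between the untreated and by -0.62 between the treated lines. Dtx1 differed by 0.10 and -0.18, and Mfng by 0.61 and 1.62, in the same order. Basal and fibroblast markers also separated the lines, as given above, and their part in these differences was not tested. Whether the response to doxycycline differed between the lines could not be tested, since 1 array per line and condition leaves no spread for it.

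The other genes of the pathway were described from 9 lists, by lead probe set, and these lists too were chosen with earlier results known. Of 79 such genes tested, 10 fell, beside 6.95% of all genes tested, and 10 rose, beside 4.76%, and the median changed by -0.02 in line 8534 and 0.02 in line 8542. Without the block, limma called 4 of them lower (Hes5, Hey1, Hey2 and Heyl) and 0 higher, so that each of the other calls named here rests on the pairing by line. The falls were mostly those of the HES and HEY repressors and the receptors. Of 7 HES and HEY genes, 4 fell, among them Hes5 (63.9-fold in 8534 and 49.3-fold in 8542 cells), Heyl (13.4-fold and 22.6-fold) and, named after their values were seen, Hey1 and Hey2, while Hes6 rose 1.44-fold and 2.50-fold. Hes1 and Hes7, also named after their values were seen, did not pass. Hes1 was lower by 1.74-fold in 8534 and 1.32-fold in 8542 cells (limma adjusted p = 0.0579). Of the 4 receptors, Notch1, Notch3 and Notch4 fell and Notch2 rose. Notch3 fell 2.35-fold and 1.85-fold (limma adjusted p = 0.00334), Notch4 3.94-fold and 24.1-fold (limma adjusted p = 0.0168), its treated 8542 signal of 1.81 units lying under the mark of 5.52 units, and Notch2 rose 1.39-fold and 1.66-fold (limma adjusted p = 0.0266). Of 6 ligands, Jag1 fell, 1.65-fold and 6.12-fold (limma adjusted p = 0.0374). The other 5, Delta-like genes among them, did not pass. The call of Jag1 was lost without an expression filter, with quantile normalization and over the mean of all probe sets. That of Notch4 was lost over the mean of all probe sets.

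Genes that act next to the feedback set were called in both directions among the ubiquitin ligases and endocytic genes, and higher among the NUMB partners. Of all 15070 genes tested, limma called 6.95% lower and 4.76% higher. At an unadjusted limma p under 0.05, 2119 of them were lower and 1869 higher. The counts below are to be read beside these shares. None of the 8 genes that add or extend O-linked sugars on NOTCH, the substrate of the Fringe proteins, was called in limma (3 lower and 1 higher at an unadjusted p under 0.05), and none passed the 2-fold rule. Pofut1, which adds the O-fucose that Fringe extends, had a log2 change of -0.32 in line 8534 and -0.75 in line 8542 (limma adjusted p = 0.161). Of 14 genes of NOTCH ubiquitination and endocytosis, 2 fell and 3 rose. Arrb1, which encodes β-arrestin 1, a receptor-trafficking adaptor, fell 6.90-fold and 6.81-fold (limma adjusted p = 0.000391). Neurl1b, a Neuralized-type ubiquitin ligase for NOTCH ligands, fell 2.89-fold and 2.91-fold (limma adjusted p = 0.0299), a call lost without an expression filter. Wwp2, a ubiquitin ligase of the NEDD4 family, rose 3.26-fold and 5.18-fold (limma adjusted p = 0.00132). Cblb rose as well, 1.42-fold and 1.72-fold, as did Fbxw7, the gene of the ligase that marks nuclear NOTCH for destruction, which was named after its values were seen. Itch, a ligase that acts on NOTCH together with Deltex or NUMB, had log2 changes of 0.31 and 0.20 (limma adjusted p = 0.409), and Dtx3l, a Deltex relative, of -0.02 and -0.04.

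Among 15 genes whose products bind or act with NUMB, 3 rose in limma and none fell, beside 4.76% and 6.95% of all genes tested. At an unadjusted limma p under 0.05, 1 was lower and 4 were higher, beside 2119 and 1869 of all 15070 genes tested. None passed the 2-fold rule in either direction. Ap2b1, a subunit of the AP-2 adaptor of clathrin-coated vesicles, rose 1.79-fold and 3.03-fold (limma adjusted p = 0.0114). Mdm2, the p53 ligase, rose 1.99-fold and 1.90-fold (limma adjusted p = 0.00396). Prkci, an atypical protein kinase C that phosphorylates NUMB, rose by 1.80-fold and 1.78-fold and was named after its values were seen. The other AP-2 subunit genes Ap2a1, Ap2a2, Ap2m1 and Ap2s1 did not pass (mean log2 changes of -0.17 to 0.01). Of 8 genes of NOTCH proteolysis, Furin rose 1.56-fold and 1.69-fold and the rest did not pass. Of 12 corepressor genes, Tle2, a Groucho-type corepressor, rose 1.71-fold and 2.62-fold and the others did not pass. None of the 5 tested genes of the nuclear complex was called in limma, among them Rbpj (log2 changes of 0.25 and 0.88) and Maml1 (0.40 and 0.54). At an unadjusted limma p under 0.05, 3 of the 5 were higher, beside 1869 of all 15070 genes tested. None passed the 2-fold rule.

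**Figure D3:**
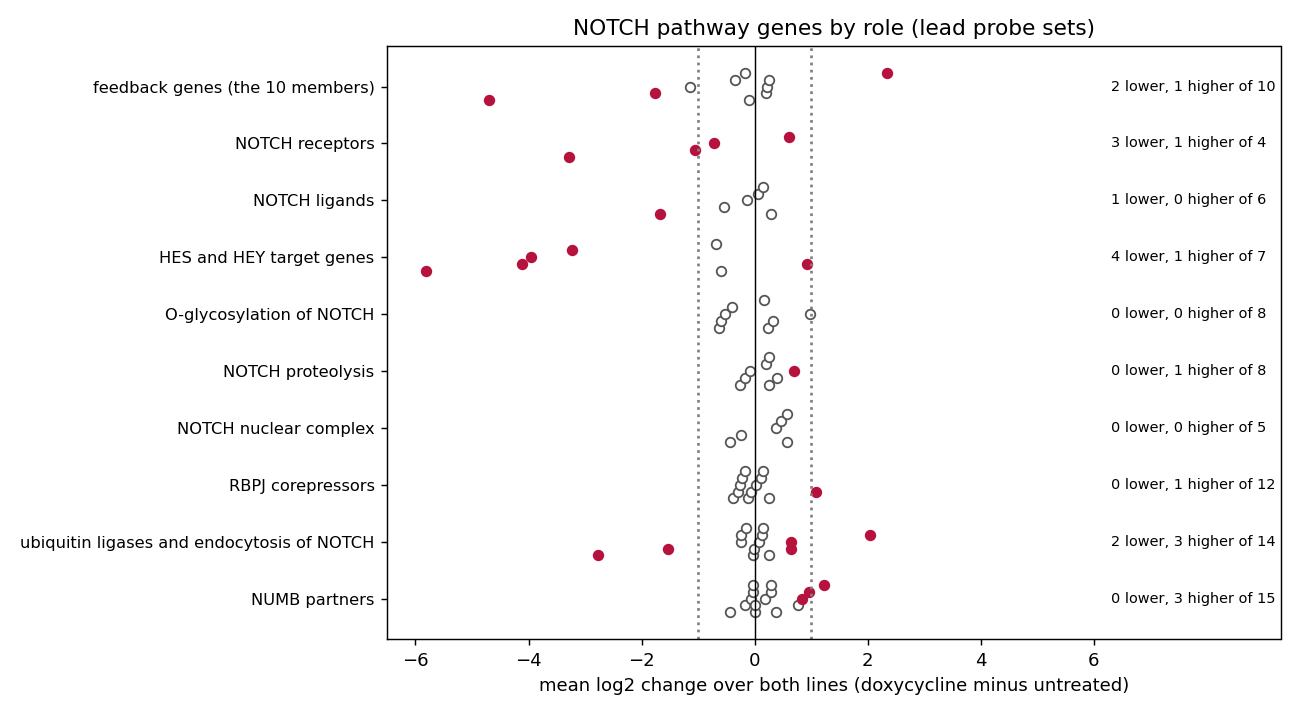
Mean log2 change over both lines (doxycycline minus untreated) of the lead probe sets of the 10 feedback genes and of 9 lists of other NOTCH pathway genes, 1 point per gene, with points spread vertically only to separate them. Filled points were called in limma (adjusted p under 0.05), dotted lines mark a 2-fold change, and the counts at the right are genes called of genes tested. Nrarp, at -4.71, is the lowest of the feedback genes, and Hes5, at -5.81, is the lowest point of all.

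The genes closest in pattern to the 3 members with the largest changes were found by the distance between the pairs of log2 changes in the lines, over 2 lines only. Nearest to Nrarp were Rxrg, a retinoid X receptor gene (-4.37 in line 8534 and -5.01 in line 8542), Spc24, a kinetochore gene (-4.56 and -5.21), and Ceacam20 (-3.94 and -4.65). Nearest to Lfng were Angptl4, which encodes a secreted inhibitor of lipoprotein lipase (2.13 and 2.48), Nupr1, a stress-responsive gene (2.06 and 2.69), and Gch1, the first enzyme of tetrahydrobiopterin synthesis (2.31 and 2.54). Nearest to Dtx1 were Frmd4b (-1.64 and -1.91), Cinp (-1.60 and -1.87) and 4930524J08Rik (-1.57 and -1.93). The distances were 0.067 to 0.59 log2 units for Nrarp, 0.055 to 0.18 for Lfng and 0.026 to 0.053 for Dtx1. Some of these genes had signals under the mark of 5.52 units, namely Rxrg on both treated arrays (5.26 and 2.51 units), Ceacam20 in treated 8534 cells (4.34 units) and Angptl4 in untreated 8542 cells (4.76 units).

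**Figure D4:**
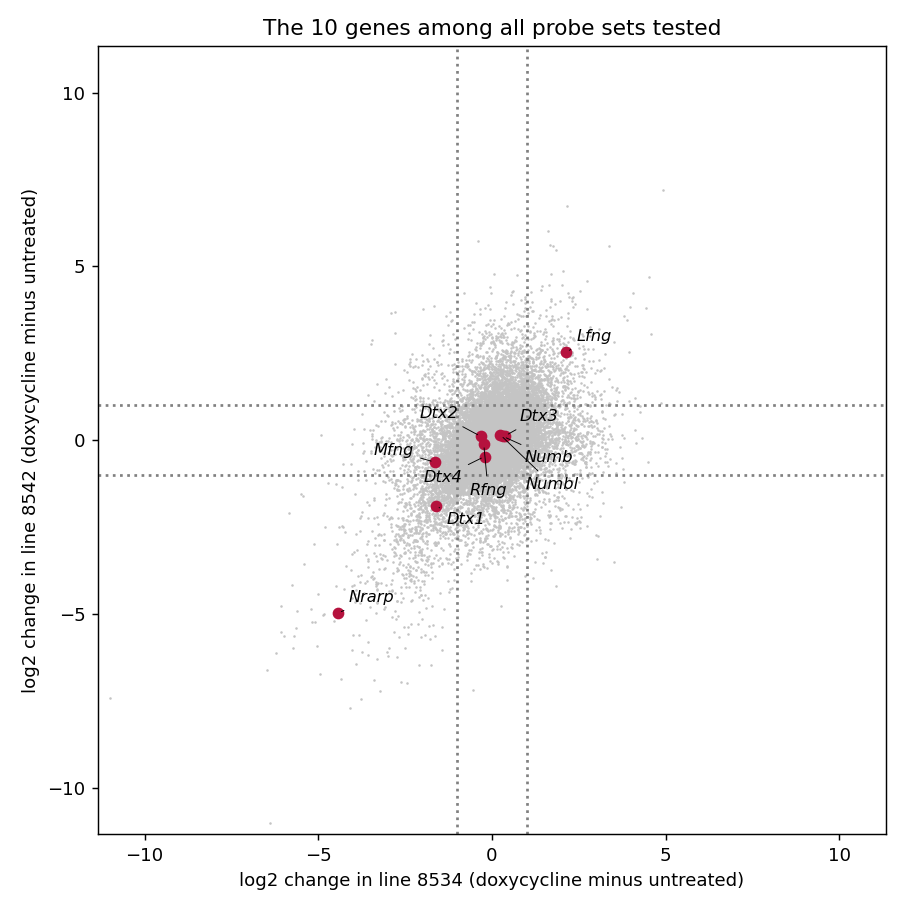
Log2 change (doxycycline minus untreated) in line 8534 against that in line 8542 for the 33778 probe sets tested (grey) and the lead probe sets of the 10 genes (red), with dotted lines at a 2-fold change. Nrarp lies at the lower left edge of the cloud, at -4.43 and -4.98, Lfng at the upper right, and 6 of the 10 genes lie inside the central square of less than 2-fold in both lines.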

How the data were processed

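Total RNA of 4 cultures was hybridized to Affymetrix mouse genome arrays. Log2 signals from the MAS5 algorithm were deposited by the authors. Base 2 was read from the values, since it alone gave trimmed mean signals close to a customary target of MAS5 scaling (97.7 to 101.8 units). Neither the MAS5 version nor that target is given in the sources used here. Detection calls were not used. Of all probe sets, 64 controls were left out. GEO's platform annotation gave 1 gene symbol to 34945 of 45037 probe sets, several to 932 and none to 9160, and only the first were named. No floor or pseudocount was applied.

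limma 3.58.1 (R 4.3.3) was fitted with terms for line and treatment to 33778 probe sets whose mean log2 signal reached the 25th percentile (2.94), with trended eBayes moderation and p-values adjusted by Benjamini-Hochberg. It left 1 residual degree of freedom, to which moderation added 6.18. Confidence intervals (95%) come from the same fit. The lines came from separate tumors, but with 1 array each per condition, array noise and culture differences cannot be separated. Line is the block because both arrays of a pair are of the same cell line. The fit was tested on simulated data. With spreads drawn from its own variance model, the share of false calls was above that named by the threshold. With residual spreads of the arrays shuffled over probe sets, no call was made. Shuffling removes the tie between spread and signal level, so this setting cannot show how the calls depend on the variance model. That the calls need the intensity trend was seen in the fit without it, in which nothing passed.

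The members and lists were chosen with earlier results of these data known. Named genes were all 10 members, Notch1, up to 2 called genes each way of each pathway list, and the 3 genes nearest in pattern to each of the 3 members with the largest changes. Of 85 listed pathway genes, 80 had a probe set with a single symbol. Alternatives were 2 filters, a floor, a pseudocount, 2 normalizations, the mean of all probe sets, no intensity trend, no block, other fold rules and each line alone.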

Additional observations from a re-analysis of the deposited data

Results flagged for a closer look

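Dtx2 moved apart between the lines by its lead probe set. The log2 change was -0.32 in 8534 cells but 0.10 in 8542 cells, which lie 0.43 apart. Each line had 1 array per condition, so the difference was not tested. The other Dtx2 probe set was higher with doxycycline in both lines (0.19 and 0.65). No other of the 10 genes changed in opposite directions in the lines by its lead probe set. The second Numb probe set did so (0.32 and -0.02).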

How the results depend on the processing

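Nrarp kept its limma call under each alternative except that without the intensity trend, and Dtx1 and Lfng lost theirs without the trend, without the block and over the mean of all probe sets. Members called lower were then 0 without the trend, 1 without the replicate block and 1 over the mean of all probe sets, and members called higher were 0 under each of these. Nothing on the array passed limma without the trend (lowest adjusted p = 0.223, that of Nrarp, Dtx1 and Lfng), although 3 members were lower and 1 higher at an unadjusted p under 0.05 (Nrarp 0.000296, Lfng 0.00173, Dtx1 0.00319 and Mfng 0.0459), and 2846 probe sets were lower and 2444 higher. Dtx2 reversed over the mean of its probe sets (0.16). Of 89 limma alternatives on single members, 81 kept direction and side of the threshold, 7 lost a call and 1 reversed. All 7 losses were those of Nrarp, Dtx1 and Lfng, since the other members had no call to lose. The 81 therefore say little about how firm the calls are. Of 20 values from 1 line alone, which have no test, 1 was opposite in sign to the mean change, that of Dtx2 in line 8542 (0.10). With the filter at the 50th percentile Mfng was not tested. The block of cell line decided most calls over the array, with 83 probe sets lower and 9 higher without the replicate block. Past the 2-fold rule, probe sets lower numbered 844 with the filter at the 50th percentile, 1098 with the pseudocount, 3892 at 1.5-fold and 915 at 3-fold, and probe sets higher 401, 627, 3522 and 585, and 832 with the floor. Members past the rule were Nrarp, Dtx1 and Lfng with the floor, the pseudocount, either normalization, the mean of all probe sets and the 3-fold rule, with Mfng added at 1.5-fold and in line 8534 alone (2 to 3 members lower in single lines). Of the other pathway genes, settings added after the values were seen called 4 lower without the block and 0 without the trend. They called higher 6 without a filter, 4 over the mean of all probe sets, 0 without the block and 0 without the trend. The 6 were Notch2, Furin, Wwp2, Ap2b1, Mdm2 and Prkci, and the 4 were Notch2, Furin, Tle2 and Wwp2. With the trend, 15 were lower and 16 higher at an unadjusted limma p under 0.05, beside 2119 and 1869 of all 15070 genes tested. The line difference of Dtx4 kept its call under both filters, the floor, the pseudocount, both normalizations and the mean of all probe sets, but not without the trend (0 members called), and has no value without the block. Low signal limits Mfng and the dim probe sets of Dtx1 and Lfng.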
